A study of Homo sapiens with 12 samples.

Results

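The 9 genes described here encode most of the machinery that puts peptides on MHC class I molecules: the heavy chains HLA-B, HLA-C, HLA-E and HLA-F, the shared light chain B2M, the transporter subunits TAP1 and TAP2, the loading factor tapasin (TAPBP) and the class I transactivator NLRC5. They were taken by gene symbol from a table of 28395 genes, in which 9 of 9 were found. They were measured by RNA sequencing of mRNA in KG1a cells, an established human cell line, derived from acute myeloid leukaemia, whose cells look immature and carry CD34. The cells were sorted as CD34-positive and either bright or dim for both CD38 and CLL-1, and the study asked how oxygen affected these subsets. The groups were bright cells in hypoxia at 3% oxygen (hypoxic bright), dim cells in hypoxia (hypoxic dim), bright cells in normoxia (normoxic bright) and dim cells in normoxia (normoxic dim), with 3 libraries each and 12 in all. All groups came from 1 unmodified line grown in RPMI medium with serum, and the labels give neither an added cytokine nor the time in hypoxia.

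Class I molecules show peptides from inside the cell to CD8 T cells, and are also read by inhibitory receptors of NK cells. Peptides are cut by the proteasome, carried into the endoplasmic reticulum by the TAP1 and TAP2 dimer, and loaded with the help of tapasin onto a heavy chain paired with B2M. HLA-B and HLA-C are classical presenting chains, HLA-E mostly presents leader peptides of other class I chains to the NK receptor pair that includes KLRC1, and HLA-F is a less studied non-classical chain. Transcription of the pathway is driven by NLRC5 together with RFX, CREB and NF-Y factors on the promoters, and by IRF1 after interferon.

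Values are read counts that the authors divided by a size factor per library and rounded, called normalized values below. The sum over genes was 31828256 to 32560463 in each library. An estimate from gaps between the rounded values gave 25200000 to 39500000 counted reads. Changes are log2 fold changes of the value plus 1, fitted with limma, each with its standard error, and a gene passed at an adjusted p under 0.05 over 15057 genes tested. The labels do not say whether the 3 libraries of a group were separate cultures, so the p-values speak only of the spread among these libraries, which may be technical. The sorted phenotype could be checked on its markers: CD38 was higher in bright than in dim cells (log2 fold change 3.67 ± 0.42 in normoxia and 3.21 ± 0.42 in hypoxia), CD34 lay between 17184 and 32370 in all libraries, and CLEC12A, which encodes CLL-1, lay between 9 and 40. For CLEC12A no difference between bright and dim cells passed (-0.48 ± 0.58, adjusted p = 0.722, in normoxia, and 0.10 ± 0.58, adjusted p = 0.912, in hypoxia), so its mRNA does not show the sort. Hypoxic dim replicate 1 stood apart from the other libraries: 8 neutrophil granule genes summed to 15138 there, against 44 to 1754 in the other 11. Results that rest on this library are given with and without it. Hypoxic dim replicate 2 was highest in 15 airway epithelium genes, which summed to 16507 there, against 26 to 6429 in the others. The airway fits below leave it out.

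The promoters are shown first, since the factors named above act there. Windows from 250 bases before to 50 bases after the annotated start site were available for 7 of the 9 genes from RefSeq (GRCh38.p14), namely HLA-B, HLA-C, HLA-F, B2M, TAP1, TAP2 and TAPBP. The 4 printed here are that of TAP1, which was lower in bright cells at both oxygen levels, that of B2M, that of the classical chain HLA-B, and that of TAP2, the partner of TAP1, which passed no test. TAP1 has its window on the minus strand at chr6:32853655-32853954, B2M on the plus strand at chr15:44711267-44711566, HLA-B on the minus strand at chr6:31357130-31357429 and TAP2 on the minus strand at chr6:32838690-32838989. Each is written 5′ to 3′ on the strand of its gene. Capitals mark bases that match, on either strand, 1 of 3 motifs: the core of the interferon-stimulated response element, GAAANNGAA, the Y box ATTGG bound by NF-Y, and the CRE-like motif TGACG.
TAP1: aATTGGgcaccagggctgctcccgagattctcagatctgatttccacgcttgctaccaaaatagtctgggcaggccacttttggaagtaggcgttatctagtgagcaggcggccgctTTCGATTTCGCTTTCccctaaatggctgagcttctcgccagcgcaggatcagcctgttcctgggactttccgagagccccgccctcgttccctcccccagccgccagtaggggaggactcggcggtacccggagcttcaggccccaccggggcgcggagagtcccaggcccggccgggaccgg
B2M: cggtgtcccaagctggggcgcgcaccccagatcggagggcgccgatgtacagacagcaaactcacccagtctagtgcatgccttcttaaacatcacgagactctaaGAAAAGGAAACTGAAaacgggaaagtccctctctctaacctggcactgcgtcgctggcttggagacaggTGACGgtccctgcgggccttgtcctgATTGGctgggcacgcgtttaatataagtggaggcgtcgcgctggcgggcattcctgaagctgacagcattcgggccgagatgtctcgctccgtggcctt
HLA-B: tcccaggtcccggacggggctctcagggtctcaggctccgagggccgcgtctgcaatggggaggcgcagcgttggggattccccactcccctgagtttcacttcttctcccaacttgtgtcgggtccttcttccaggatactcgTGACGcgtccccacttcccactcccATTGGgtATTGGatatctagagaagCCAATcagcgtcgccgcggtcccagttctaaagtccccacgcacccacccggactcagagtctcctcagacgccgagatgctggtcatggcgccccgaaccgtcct
TAP2: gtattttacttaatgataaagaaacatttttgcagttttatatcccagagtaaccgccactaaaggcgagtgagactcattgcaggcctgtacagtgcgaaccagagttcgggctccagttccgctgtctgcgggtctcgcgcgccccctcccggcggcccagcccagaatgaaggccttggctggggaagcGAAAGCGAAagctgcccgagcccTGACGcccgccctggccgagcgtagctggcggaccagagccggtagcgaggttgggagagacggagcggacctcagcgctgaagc

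TAP1 held the interferon element at -133 to -125 and again, overlapping it, at -127 to -119, with the start site as 0, and a Y box at -249 to -245. A further annotated start site of TAP1, with its window on the minus strand at chr6:32852712-32853011, held none of the 3 motifs. TAP2 held the interferon element once, at -58 to -50, and the CRE-like motif at -35 to -31. B2M held all 3, with overlapping interferon elements at -144 to -136 and -138 to -130, the CRE-like motif at -75 to -71 and a Y box at -49 to -45. HLA-B held the CRE-like motif at -106 to -102 and 3 Y boxes, and no match to the interferon element as spelled here. HLA-C likewise had the CRE-like motif and Y boxes, HLA-F had an interferon element at -155 to -147 and 2 Y boxes, and TAPBP had overlapping interferon elements at -20 to -12 and -14 to -6. Motifs of different kinds did not overlap in these windows. Of 35116 promoters in the table, 8.11% held the interferon element, 34.6% the Y box and 24.6% the CRE-like motif. These are matches of letters, and binding was not measured.

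**Figure D1:**
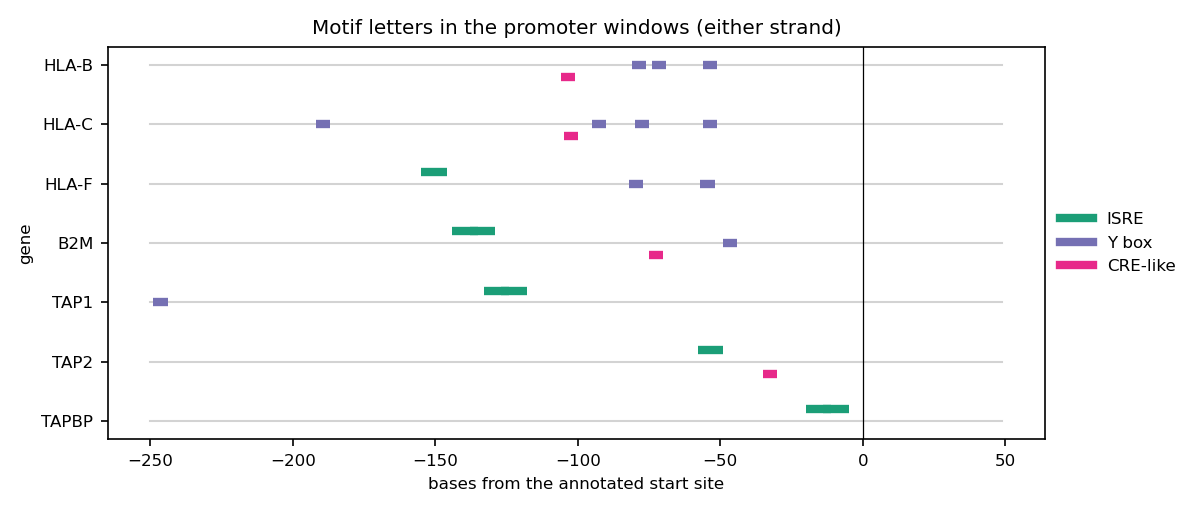
Positions of the 3 motifs, on either strand, in the promoter windows of 7 genes, with the horizontal axis in bases from the annotated start site and 1 row per gene (ISRE, interferon-stimulated response element). Interferon elements spelled GAAANNGAA lie at -133 to -119 in TAP1, at -144 to -130 in B2M and at -58 to -50 in TAP2. The rows of HLA-B and HLA-C hold no match to this spelling, and other spellings of the element were not searched.

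All 9 genes were expressed, and 9 of 9 passed the filter for testing, with a value of at least 10 in 12 of 12 libraries each. Per kilobase of annotated exon, averaged over the 12 libraries, the light chain B2M was the most abundant (normalized value per kilobase 24400, rank 77 of 28395 genes), followed by HLA-B (11800), HLA-C (7030), HLA-E (2540), TAP1 (2090), NLRC5 (1230), TAPBP (1130), TAP2 (907) and HLA-F (25.9). Each gene exceeded the next in this order in 12 of 12 libraries, except that NLRC5 exceeded TAPBP in 10 of 12. HLA-F stood furthest from its neighbour, with TAP2 35-fold above it. Reads of the classical HLA genes can be split between near-identical genes and pseudogenes, and the alleles of the line may differ from the reference, so the levels of HLA-B, HLA-C and HLA-F relative to each other are uncertain.

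In normoxia, bright cells had lower levels of TAP1, HLA-E and NLRC5 than dim cells, by 1.69-fold, 1.56-fold and 1.36-fold. Of the 9 genes, 3 were lower in bright cells, 0 were higher and 6 did not pass. Among all 15057 genes tested, 6.66% passed in this comparison, and 3.79% were lower in bright cells. The median log2 fold change of the 9 genes was -0.18, against -0.005 over all genes tested. In hypoxia the transporter subunit TAP1, HLA-E and B2M were lower in bright cells, by 1.39-fold, 1.33-fold and 1.24-fold, and again 3 were lower, 0 were higher and 6 did not pass. There 26.5% of all genes passed and 13.6% were lower, so the share of the 9 genes is set against a larger background. The median of the 9 was -0.31, against -0.031 over all genes tested. Without hypoxic dim replicate 1, 2 of the 9 were lower in hypoxia, as were 2052 of the 15057 genes tested. HLA-B was then at -0.17 and HLA-E at -0.28. HLA-C (0.08) and HLA-F (0.32) turned positive in that fit, so the hypoxic median rests in part on that library. TAP1 and HLA-E were lower at both oxygen levels, which held for 386 of the tested genes (2.56%). In sorted populations, fewer cells of a type and less RNA per cell cannot be told apart.

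Of the transporter subunits TAP1 passed between bright and dim cells and TAP2 did not. TAP1 (gene ID 6890, chr6:32845209-32853971, minus strand, hg38) had normalized values of 5330, 5131 and 4808 in normoxic bright libraries, against 9507, 8628 and 7756 in normoxic dim libraries. In hypoxia it had 5338, 5147 and 5200 in bright libraries, against 8068, 7207 and 6604 in dim libraries. Every bright library was below every dim library at both oxygen levels. The fitted log2 change from limma was -0.76 ± 0.09 in normoxia, with an adjusted p of 0.000118, and in hypoxia -0.48 ± 0.09, with an adjusted p of 0.00209, and -0.40 ± 0.09 in hypoxia without hypoxic dim replicate 1 (adjusted p = 0.00619). TAP2 (gene ID 6891, chr6:32821833-32838823, minus strand), whose product forms the transporter together with TAP1, had 5953, 5506 and 5071 in normoxic bright libraries, against 6200, 6563 and 5840 in normoxic dim libraries, and the groups overlapped. In hypoxia TAP2 had 5007, 5293 and 5242 in bright libraries, against 6230, 5295 and 5472 in dim libraries, apart by the gap between 5293 and 5295 alone. For TAP2 the change was -0.17 ± 0.08 in normoxia (adjusted p of 0.27) and, under hypoxia, -0.13 ± 0.08 (adjusted p of 0.262), with 95% intervals of -0.34 to 0.00 and -0.30 to 0.05.

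Among the heavy chains, HLA-E passed between bright and dim cells and HLA-B, HLA-C and HLA-F did not. Whether the chains differed from each other in this was not tested. HLA-E (gene ID 3133, chr6:30489406-30494205, plus strand) had 5382, 5376 and 4926 in normoxic bright libraries, against 8610, 8097 and 7749 in normoxic dim libraries. In hypoxia HLA-E had 6164, 5827 and 5623 in bright libraries, against 9288, 7353 and 6893 in dim libraries. The groups did not overlap at either oxygen level, and hypoxic dim replicate 1 was the highest library. HLA-E changed by a log2 fold of -0.64 ± 0.10 in normoxia, adjusted p = 0.0011, and of -0.41 ± 0.10 under hypoxia, adjusted p = 0.00842, and by -0.28 ± 0.08 under hypoxia without hypoxic dim replicate 1 (adjusted p = 0.0181).

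HLA-B (gene ID 3106, chr6:31353868-31357212, minus strand) had 17122, 17717 and 18601 in normoxic bright libraries, against 23593, 21557 and 20372 in normoxic dim libraries. Under hypoxia the values were 17204, 17349 and 17366 in bright libraries, against 30345, 20101 and 18834 in dim libraries. Bright libraries were below dim libraries at both oxygen levels, yet the log2 fold changes did not pass, at -0.29 ± 0.13 in normoxia (adjusted p = 0.262) and, under hypoxia, at -0.38 ± 0.13 (adjusted p = 0.0504). The value in hypoxia turned on the dim libraries, at -0.17 ± 0.08 without hypoxic dim replicate 1 (adjusted p = 0.118), while it passed without hypoxic dim replicate 2 (-0.47, adjusted p = 0.0476) or replicate 3 (-0.51, adjusted p = 0.012).

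HLA-C (gene ID 3107, chr6:31268749-31272136, minus strand), which also serves as a ligand of inhibitory receptors on NK cells, had 10861, 10376 and 10024 in normoxic bright libraries, against 12413, 11757 and 10693 in normoxic dim libraries. In hypoxia HLA-C had 10737, 10798 and 10573 in bright libraries, against 15189, 10236 and 10046 in dim libraries. The groups overlapped, and in hypoxia a single dim library lay above the bright ones while the remaining dim libraries lay below them. Its log2 fold change was -0.16 ± 0.12 in normoxia (95% interval -0.42 to 0.11) and -0.12 ± 0.12 in hypoxia (95% interval -0.38 to 0.15), and 0.08 ± 0.07 in hypoxia without hypoxic dim replicate 1.

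HLA-F (gene ID 3134, chr6:29723340-29740355, plus strand) was low and uneven, so that no difference between groups could be resolved. It had 53, 53 and 156 in normoxic bright libraries, against 73, 67 and 71 in normoxic dim libraries. In hypoxia HLA-F had 42, 64 and 90 in bright libraries, against 459, 53 and 47 in dim libraries. The highest values, 459 in hypoxic dim replicate 1 and 156 in normoxic bright replicate 3, fell in the libraries with the highest summed neutrophil granule genes, 15138 and 1754, and the part of those transcripts in HLA-F was not tested. The log2 fold change of HLA-F was 0.11 ± 0.69 in normoxia and -0.74 ± 0.69 in hypoxia. Without normoxic bright replicate 3 the normoxic value was -0.40, and without hypoxic dim replicate 1 the hypoxic value was 0.32.

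The light chain B2M (gene ID 567, chr15:44711487-44718159, plus strand), which pairs with class I heavy chains, had 29051, 36927 and 38086 in normoxic bright libraries, against 43722, 35817 and 37017 in normoxic dim libraries. In hypoxia B2M had 38205, 36245 and 34577 in bright libraries, against 46954, 42481 and 45704 in dim libraries. The groups overlapped in normoxia and were apart in hypoxia. On the log2 scale B2M changed by -0.31 ± 0.10 in hypoxia (adjusted p = 0.0415), while its value of -0.17 ± 0.10 in normoxia did not pass (adjusted p = 0.427). The hypoxic call was lost when any of the 6 hypoxic libraries was left out, with changes of -0.35 to -0.27 and adjusted p of 0.0581 to 0.122. It was also lost when limma was run without the mean trend (adjusted p = 0.0813) or without the filter on low values (adjusted p = 0.0861).

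Tapasin, which bridges TAP to the class I heavy chain (TAPBP, gene ID 6892, chr6:33299694-33314387, minus strand), had 4281, 4415 and 4151 in normoxic bright libraries, against 5001, 5014 and 4583 in normoxic dim libraries. In hypoxia TAPBP had 4294, 4453 and 4409 in bright libraries, against 5283, 4997 and 4386 in dim libraries. The groups were apart in normoxia and overlapped in hypoxia. Log2 fold changes of -0.18 ± 0.07 in normoxia (adjusted p = 0.19) and, under hypoxia, -0.15 ± 0.07 (adjusted p = 0.141) did not pass, but the hypoxic one did without hypoxic dim replicate 3 (-0.23, adjusted p = 0.0225).

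NLRC5 (gene ID 84166, chr16:56989547-57083526, plus strand), the transactivator of class I genes, was lower in bright cells in normoxia, and no difference was resolved in hypoxia. It had 8356, 8315 and 6836 in normoxic bright libraries, against 11147, 10818 and 9861 in normoxic dim libraries. In hypoxia NLRC5 had 9248, 9658 and 8967 in bright libraries, against 9917, 9204 and 8586 in dim libraries. The groups were apart in normoxia and interleaved in hypoxia. NLRC5 changed by -0.44 ± 0.09 on the log2 scale in normoxia (adjusted p = 0.00701), and under hypoxia the value was 0.01 ± 0.09 (adjusted p = 0.944). There the 95% interval was -0.18 to 0.20.

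**Figure D2:**
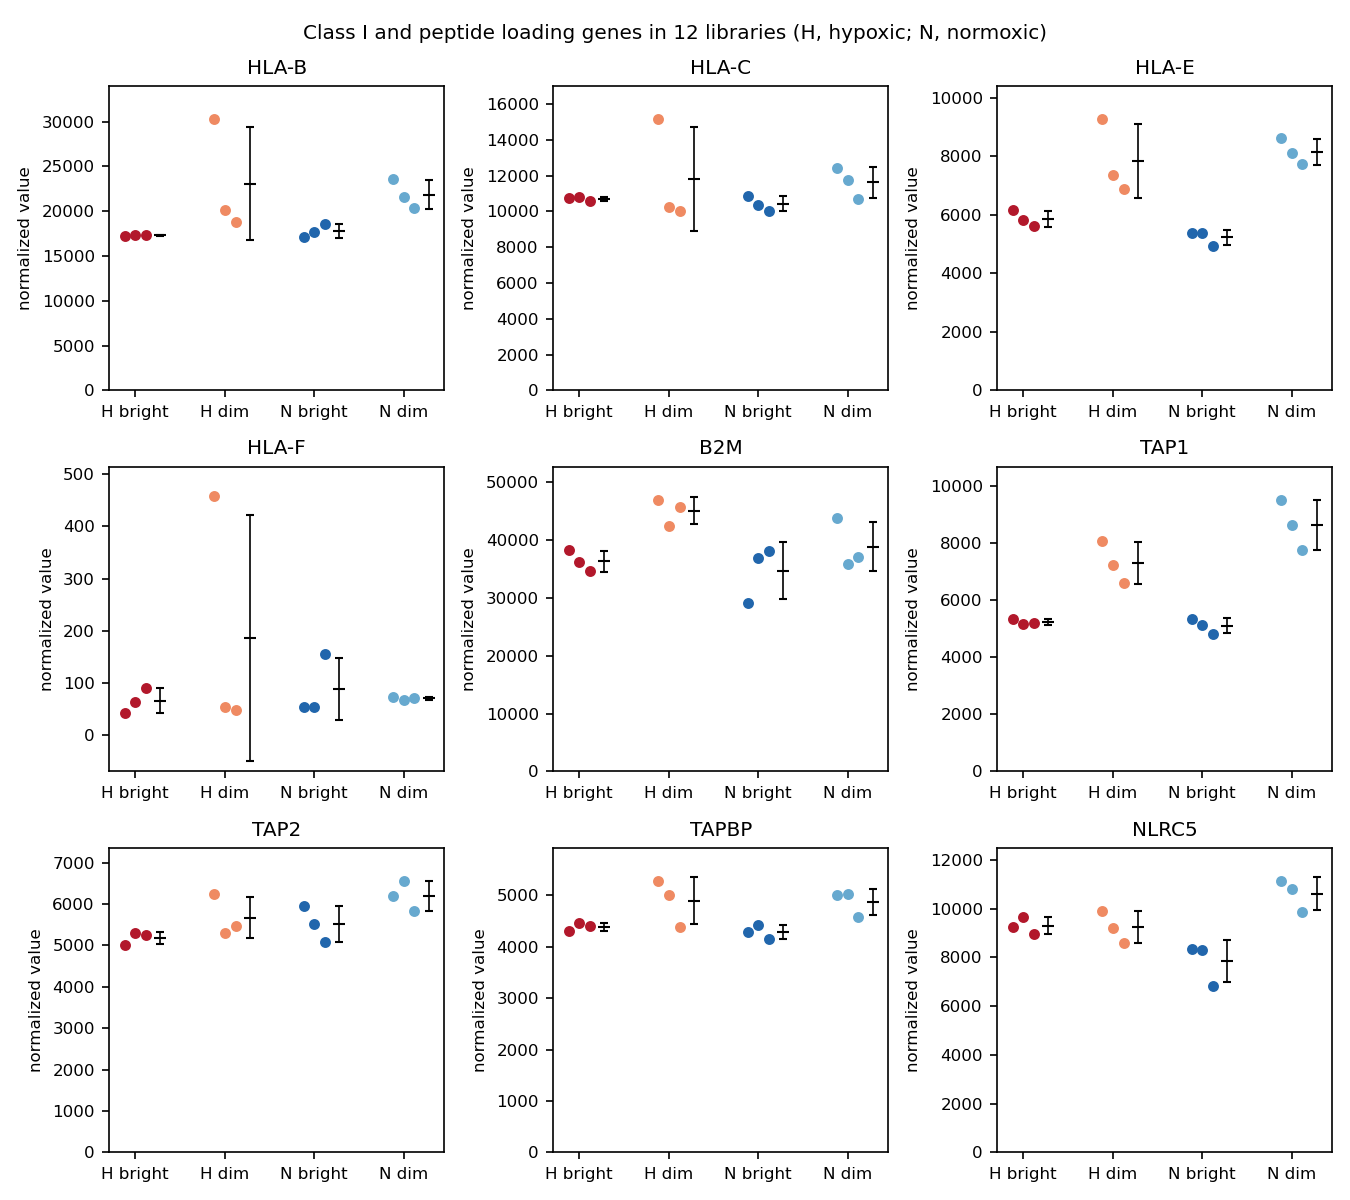
Normalized value of each of the 9 genes in every library, 1 panel per gene, with the groups along the horizontal axis (H, hypoxic; N, normoxic) and the mean with SD of 3 libraries beside the points. TAP1 and HLA-E lie lower in bright than in dim libraries at both oxygen levels, NLRC5 lies lower in normoxic bright than in normoxic dim libraries, and a single hypoxic dim library is highest for HLA-B (30345), HLA-C (15189) and HLA-F (459).

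Whether replicates of the groups were apart was also counted. In normoxia bright and dim libraries did not overlap for 5 of the 9 genes (HLA-B, HLA-E, TAP1, TAPBP and NLRC5), all with bright below dim, against 11.7% of all genes with bright below dim. In hypoxia this held for 5 of the 9 (HLA-B, HLA-E, B2M, TAP1 and TAP2), against 21.9% of all genes. The sign was negative for 8 of the 9 genes in each of these comparisons, the exceptions being HLA-F in normoxia and NLRC5 in hypoxia. Without hypoxic dim replicate 1, HLA-C (0.08) and HLA-F (0.32) were also positive in hypoxia. The genes are not independent of each other, and hypoxic dim replicate 1 was the highest of all libraries for HLA-B, HLA-C, HLA-E, HLA-F, B2M and TAPBP.

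None of the 9 genes passed the limma test for oxygen. In dim cells 0 of 9 passed for hypoxia against normoxia, where 0.232% of all genes passed. At an unadjusted p under 0.05 the limma count was 2 of 9. The shares of all genes refer to the adjusted p, and no share at the unadjusted threshold is given. Counts at the unadjusted threshold, here and below and for the lists too, are therefore not read as a result. TAP1 averaged 7290 ± 736 in hypoxic dim and 8630 ± 876 in normoxic dim libraries (SD, n = 3 each), a log2 fold change of -0.24 ± 0.09 (adjusted p = 0.184). NLRC5 averaged 9240 ± 666 in hypoxic dim and 10600 ± 668 in normoxic dim libraries (SD, n = 3 each), a log2 fold change of -0.20 ± 0.09 (adjusted p = 0.253). For B2M, the gene with the largest positive value in dim cells after HLA-F, the log2 fold change was 0.22 ± 0.10 (adjusted p = 0.297). None of the 9 genes had hypoxic dim and normoxic dim libraries apart, against 17.5% of all genes.

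In bright cells 0 of 9 passed for hypoxia against normoxia, where 0.837% of all genes passed, and 1 of 9 had an unadjusted p under 0.05. That gene was NLRC5, which averaged 9290 ± 348 in hypoxic bright and 7840 ± 866 in normoxic bright libraries (SD, n = 3 each), a log2 fold change of 0.25 ± 0.09 (adjusted p = 0.187). HLA-E averaged 5870 ± 273 in hypoxic bright and 5230 ± 262 in normoxic bright libraries, a log2 fold change of 0.17 ± 0.10 (adjusted p = 0.421). For both genes every hypoxic bright library was above every normoxic bright library, and 22.3% of all genes were apart in this comparison. TAP1 was at 0.04 ± 0.09, with a 95% interval of -0.15 to 0.23.

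Whether hypoxia acted differently in bright and in dim cells was tested as the bright minus dim difference of its effects, which passed for 0 of 9 genes, against 2.36% of all genes, and 2 of 9 had an unadjusted p under 0.05. It was largest relative to its error for NLRC5, at 0.45 ± 0.12 on the log2 scale (95% interval 0.19 to 0.72, adjusted p = 0.0647). This passed without normoxic bright replicate 1 (0.50, adjusted p = 0.045) or hypoxic dim replicate 1 (0.50, adjusted p = 0.0471). For TAP1 the difference was 0.28 ± 0.12 (adjusted p = 0.198) and for HLA-E 0.23 ± 0.14 (adjusted p = 0.338). The smaller bright to dim gap of TAP1 and HLA-E in hypoxia was therefore not shown to differ from that in normoxia.

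**Figure D3:**
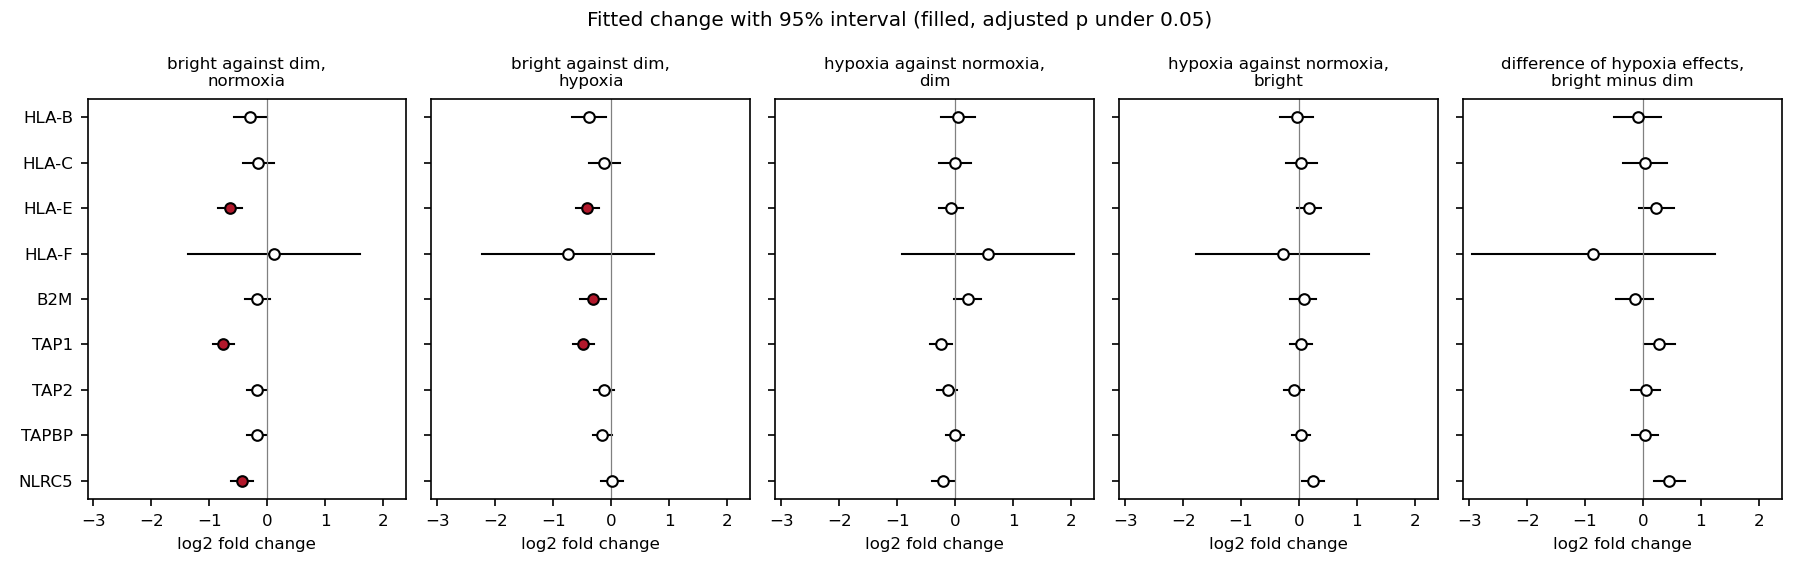
Fitted log2 fold change of the 9 genes with its 95% interval in each of 5 comparisons, 1 panel per comparison and 1 row per gene, with filled points at an adjusted p under 0.05. Filled points are TAP1, HLA-E and NLRC5 for bright against dim in normoxia and TAP1, HLA-E and B2M in hypoxia, and the panels for oxygen and for the difference hold none.

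Across the 12 libraries the genes did not move as one block. Pearson's r between HLA-E and TAP1 was 0.95 and between HLA-B and HLA-C 0.88, whereas between HLA-F and NLRC5 it was -0.02 and between B2M and TAP2 0.06. Without hypoxic dim replicate 1 these values were 0.97 for HLA-E and TAP1, 0.64 for HLA-B and HLA-C, -0.36 for HLA-F and NLRC5 and -0.14 for B2M and TAP2. These are descriptions over 12 libraries in 4 groups that share depth and group structure. The mean of the 9 genes, each centred on the log2 scale, was highest in hypoxic dim replicate 1 (0.58) and otherwise lay between -0.21 and 0.23. Among 11080 genes with a mean of at least 100, the profile of TAP1 was most like that of IRF1 (r = 0.990), the interferon regulatory factor, followed by the interleukin 4 receptor chain IL4R (0.981) and ADAMTS15 (0.979). Leaving out hypoxic dim replicate 1 gave 0.991, 0.991 and 0.978. NLRC5 was most like STARD9 (0.948), MOB3C (0.933) and STAT2 (0.923), at 0.958, 0.931 and 0.921 without that library. The mean profile of the 9 genes was most like PIK3CD (0.941) and AFDN (0.933), with 0.833 and 0.797 without it. PIK3CD had 1993 in hypoxic dim replicate 1 and between 426 and 734 elsewhere.

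The remaining genes of the pathway were read from lists. The other class I heavy chain genes were HLA-G with the pseudogenes HLA-H, HLA-J and HLA-L, and 0 of 4 passed with limma in any of the 5 comparisons. At an unadjusted p under 0.05 the count was 1 for bright against dim in normoxia, namely HLA-G (-0.60 ± 0.20, adjusted p = 0.108), and 0 in the others. The median of this list was -0.21 in normoxia and -0.08 in hypoxia for bright against dim, where the medians of all genes tested, which apply to the lists below too, were -0.005 and -0.031. The counts of those lists likewise stand beside the shares of all genes given above, 6.66% passing and 3.79% lower in normoxia.

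Genes that supply peptides, the immunoproteasome and its activator and the peptide-trimming enzymes, were in part lower in bright cells. Of 10 tested, 3 were lower, 0 were higher and 7 did not pass in normoxia, with a median of -0.17. PSMB9, an immunoproteasome subunit encoded beside TAP1, averaged 980 ± 27.7 in normoxic bright and 1480 ± 211 in normoxic dim libraries, a log2 fold change of -0.58 ± 0.13 (adjusted p = 0.017). The proteasome activator subunit PSME2 (-0.41 ± 0.10, adjusted p = 0.0233) and the trimming enzyme ERAP2 (-0.45 ± 0.11, adjusted p = 0.029) were the others. Each of these calls was lost when some single libraries were left out, with adjusted p up to 0.0875 for PSMB9 (4 of 6 libraries), 0.105 for PSME2 (4 of 6) and 0.124 for ERAP2 (5 of 6).

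In hypoxia, of the 10 peptide supply genes 4 were lower in bright cells, 1 was higher and 5 did not pass, with a median of -0.11, where 26.5% of all genes passed and 13.6% were lower. PSME2 averaged 3360 ± 257 in hypoxic bright and 4880 ± 486 in hypoxic dim libraries (-0.53 ± 0.10, adjusted p = 0.00219). The immunoproteasome subunit PSMB10 was at -0.48 ± 0.12 (adjusted p = 0.0125), and these calls held without any single hypoxic library. PSME1 (-0.26 ± 0.08, adjusted p = 0.0228) and PSMB9 (-0.38 ± 0.13, adjusted p = 0.0492) lost theirs in 3 of 6 and 5 of 6 such fits, at adjusted p of up to 0.105 and 0.165. The trimming enzyme ERAP1 went the other way, at 1280 ± 73.0 in hypoxic bright and 990 ± 140 in hypoxic dim libraries (0.38 ± 0.10, adjusted p = 0.0174), and lost its call in 3 of 6 (up to 0.0756). None of the 10 passed with limma for oxygen in either subset or for the difference, and at an unadjusted p under 0.05 there was 1 in dim and there were 2 in bright cells, with 2 for the difference.

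Chaperones of the endoplasmic reticulum that fold and load class I did not pass in normoxia, with 0 of 10 by limma, 1 at an unadjusted p under 0.05 and a median of -0.04. In hypoxia 4 of 10 were lower in bright cells, 1 was higher and 5 did not pass, against 26.5% of all genes passing and 13.6% lower, and the median of -0.06 was close to the -0.031 of all genes. Calreticulin (CALR), part of the loading complex, averaged 76100 ± 7190 in hypoxic bright and 94700 ± 5320 in hypoxic dim libraries (-0.32 ± 0.08, adjusted p = 0.00834). The translocon subunit SEC61B was at -0.40 ± 0.08 (adjusted p = 0.00355) and the disulphide isomerase PDIA3, also part of the loading complex, at -0.24 ± 0.06 (adjusted p = 0.013). The folding sensor UGGT1 was higher, at 0.48 ± 0.12 (adjusted p = 0.0119). PDIA3 lost its call without hypoxic dim replicate 2 or hypoxic bright replicate 1 (adjusted p up to 0.0586), and UGGT1 without hypoxic dim replicate 2 or hypoxic bright replicate 2 (up to 0.0568).

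Of 19 regulators of class I transcription, 3 were lower in normoxic bright than in normoxic dim cells, 0 were higher and 16 did not pass, with a median of -0.15. IRF1, which acts on class I promoters, averaged 1730 ± 131 in normoxic bright and 2860 ± 335 in normoxic dim libraries (-0.72 ± 0.09, adjusted p = 0.000345). IRF9, a DNA-binding partner of STAT2, was at -0.65 ± 0.10 (adjusted p = 0.0011). Both calls held when any single normoxic library was left out. STAT2, a signal transducer of type I interferon receptors, averaged 1040 ± 56.5 in normoxic bright and 1340 ± 94.9 in normoxic dim libraries (-0.37 ± 0.08, adjusted p = 0.0158), a call that was lost in 4 of 6 fits with 1 library less, at adjusted p of up to 0.0754. The subunits of RFX, CREB and NF-Y that recruit NLRC5 did not pass in normoxia, while 1 of them, NFYB, passed in hypoxia.

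In hypoxia 4 of the 19 regulators were lower in bright cells, 3 were higher and 12 did not pass, with a median of -0.08. Thus 36.8% of the regulators passed and 21.1% were lower, against 26.5% and 13.6% of all genes, and nothing particular to the regulators is read from these counts. IRF9 (-0.48 ± 0.10, adjusted p = 0.00393), IRF1 (-0.44 ± 0.09, adjusted p = 0.00503) and the polycomb methyltransferase EZH2 (-0.32 ± 0.08, adjusted p = 0.00803) were lower, and held without any single library. The NF-Y subunit NFYB, named after its values were seen, was also lower, at 978 ± 75.2 in hypoxic bright and 1340 ± 199 in hypoxic dim libraries (-0.45 ± 0.15, adjusted p = 0.04), and lost its call in 5 of 6 fits with 1 library less (up to 0.127). CIITA, the class II counterpart of NLRC5, was higher, with 89, 79 and 81 in hypoxic bright libraries, against 20, 0 and 8 in hypoxic dim libraries (3.87 ± 0.79, adjusted p = 0.00373). STAT3 (0.26 ± 0.08, adjusted p = 0.0248) and NFKB1 (0.34 ± 0.10, adjusted p = 0.0256) were also higher, calls that were lost in 5 of 6 and 4 of 6 fits with 1 library less, at adjusted p of up to 0.0802 and 0.105.

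For oxygen 0 of the 19 regulators passed with limma in either subset or for the difference of the effects. At an unadjusted p under 0.05 there were 5 in dim and 2 in bright cells, with 4 for the difference.

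Of 9 interferon receptor, kinase and SOCS genes 2 were lower in normoxic bright cells, 0 were higher and 7 did not pass, with a median of -0.03. Both were feedback inhibitors of cytokine signalling. SOCS3 averaged 655 ± 88.9 in normoxic bright and 1660 ± 86.4 in normoxic dim libraries (-1.35 ± 0.11, adjusted p = 1.08e-05). SOCS1 averaged 317 ± 72.8 in normoxic bright and 939 ± 174 in normoxic dim libraries (-1.58 ± 0.17, adjusted p = 8.14e-05). In hypoxia SOCS3 (-1.44 ± 0.11, adjusted p = 6.51e-06) and SOCS1 (-1.28 ± 0.17, adjusted p = 0.000281) were again lower, and the kinases JAK1 (0.30 ± 0.08, adjusted p = 0.018) and JAK2 (0.45 ± 0.15, adjusted p = 0.0368) were higher, with 5 not passing and a median of 0.06, where 26.5% of all genes passed. The JAK1 and JAK2 calls were lost in 3 of 6 and 4 of 6 fits with 1 library less, at adjusted p of up to 0.0814 and 0.14.

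**Figure D4:**
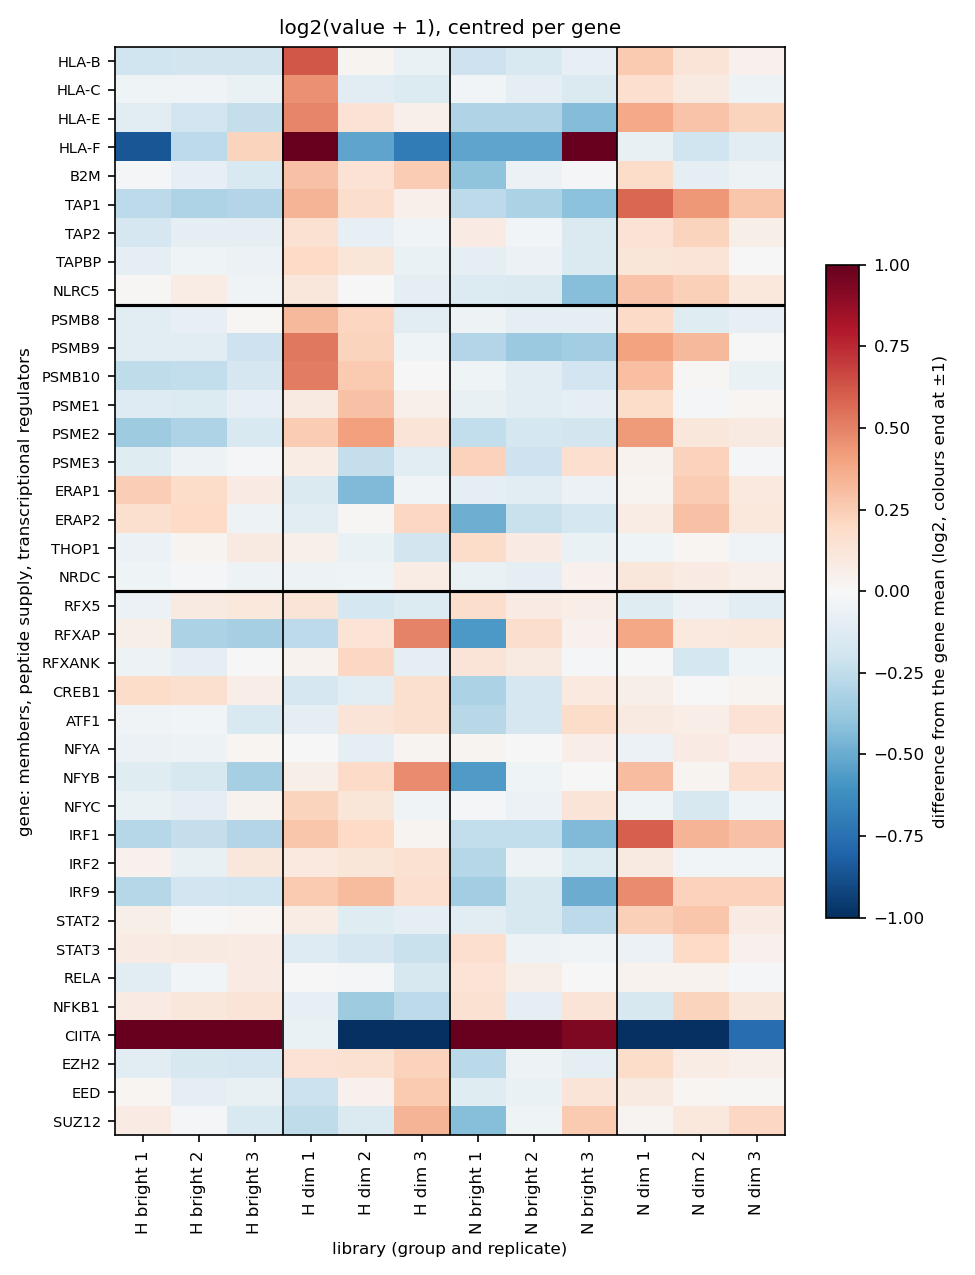
log2(value + 1) of the 9 genes (top), 10 peptide supply genes (middle) and 19 regulators (bottom) in the 12 libraries, each gene centred on its mean over all libraries, with colours ending at 1 on either side. TAP1, HLA-E, IRF1 and IRF9 are red in normoxic dim and blue in normoxic bright libraries, and the class II regulator CIITA shows the reverse.

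Some summed markers of other cell types moved with the groups, carried largely by few genes. Of 10 T and NK cell genes, 10 of 10 reached a value of 10 in at least 1 library. CD3D (3873 to 9078 over all libraries) and NKG7 (1390 to 4298) were the highest, while CD3G (0 to 12), GNLY (0 to 16) and CD2 (2 to 35) stayed low. The summed value of the 10 genes was 6460 to 7340 in normoxic bright and 11346 to 15225 in normoxic dim libraries. In hypoxia it was 7612 to 8136 in bright and 11888 to 12945 in dim libraries, so dim libraries lay above bright ones wherever TAP1 and HLA-E did. The 8 monocyte and macrophage genes, of which 4 reached a value of 10 in any library and C1QA and MARCO were at 0 in all, summed to 396 to 678 in normoxic bright and 1461 to 1962 in normoxic dim libraries, and to 302 to 331 in hypoxic bright and 1036 to 3698 in hypoxic dim libraries. Of these, VCAN (206 to 1857 over all libraries) and LYZ (1 to 2627) reached the highest values, while CD14 (3 to 15), FCN1 (0 to 4) and CD163 (0 to 7) stayed low. The 10 genes of KG1a and immature myeloid cells, 10 of 10 detected and led by CD34, summed to 47092 to 51371 in normoxic bright and 34489 to 39225 in normoxic dim libraries, and to 50953 to 51857 in hypoxic bright and 35435 to 37938 in hypoxic dim libraries. B cell genes, of which 1 of 5 was detected, summed to 25 to 61 in all libraries. The part of these transcripts in the bright to dim differences was not tested.

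Airway epithelium and skeletal muscle genes also varied between libraries, and some were present in all, such as the muscle gene MYH3 (194 to 484). The 15 airway genes, with 12 detected and SCGB1A1 and SCGB3A1 at 0 throughout, summed to 26 to 1014 in hypoxic bright, 997 to 16507 in hypoxic dim, 200 to 6429 in normoxic bright and 28 to 46 in normoxic dim libraries. The 15 muscle genes, all detected, summed to 336 to 510, 452 to 611, 403 to 3158 and 1133 to 4472 in the same order of groups. Without the library of each group highest in the airway list, the log2 fold change of TAP1 between bright and dim cells was -0.69 ± 0.12 in normoxia (adjusted p = 0.0338) and, under hypoxia, -0.47 ± 0.12 (adjusted p = 0.0654), with 8 libraries left. In the same fit HLA-E was at -0.62 ± 0.14 in normoxia (adjusted p = 0.0968) and, under hypoxia, -0.44 ± 0.14 (adjusted p = 0.112), and NLRC5 at -0.45 ± 0.12 in normoxia (adjusted p = 0.177). The values stayed close to those of all libraries while the calls, with 2 libraries per group, were lost except for TAP1 in normoxia. Without the libraries highest in muscle genes, NLRC5 in normoxia (-0.45 ± 0.12, adjusted p = 0.0888) and HLA-E in hypoxia (-0.44 ± 0.14, adjusted p = 0.0747) lost their calls, and TAP1 at both oxygen levels, HLA-E in normoxia and B2M in hypoxia kept theirs. Without the libraries highest in neutrophil granule genes, of which 5 of 8 were detected and DEFA3 and DEFA4 were at 0, TAP1 was at -0.79 ± 0.10 in normoxia (adjusted p = 0.00171) and, under hypoxia, -0.39 ± 0.10 (adjusted p = 0.0283), and HLA-E at -0.63 ± 0.10 (adjusted p = 0.00527) and -0.27 ± 0.10 (adjusted p = 0.0833). Some list genes lost limma calls too. In hypoxia without the airway libraries they included IRF1 (-0.44, adjusted p = 0.0792), IRF9 (-0.46, adjusted p = 0.0604) and PSME2 (-0.44, adjusted p = 0.0559). IRF9 also lost its calls without the muscle libraries (adjusted p = 0.0556 in normoxia and 0.0595 in hypoxia). IRF1 in normoxia kept its call in each of these fits (adjusted p up to 0.0438).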

How the data were processed

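Messenger RNA of 12 libraries of sorted KG1a cells (4 groups of 3) had been sequenced with paired-end reads. Per the submitters' processing notes, Trimmomatic 0.39, STAR 2.4.2a and the builds hg38 and GRCh38 were used. How reads were counted, with which annotation and whether by strand, is not given in the sources used here. The values that the authors deposited are a score for every gene and library: read counts scaled by a median-of-ratios size factor, then rounded. The values show this, since against the geometric mean of each gene the libraries had median ratios of 1.00303 to 1.00422. A test for raw counts was therefore not used. No pair of libraries held identical values.

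The log2 of each value plus 1 went into limma 3.58.1 with R 4.3.3, using empirical Bayes with a mean trend, with 1 mean per group over all 12 libraries and 8 residual degrees of freedom. A gene was tested if 3 or more libraries had 10 or more (15057 genes, with 13338 left out). Adjustment was Benjamini-Hochberg within each of 5 comparisons, 2-sided, at 0.05. The procedure was checked on simulated data, with the spread of the most variable genes capped. Across the 5 comparisons it recovered 3.28% to 15.2% of 1.25-fold changes, 15.6% to 52.9% of 1.5-fold changes and 54.8% to 74.2% of 2-fold changes. The lowest recovery was for the difference of the hypoxia effects. With 3 libraries per group precision is limited, and a gene that did not pass may still have changed.

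The members and lists were chosen with earlier results of these data known. All 9 members are named. List genes are named where they pass, at most 3 per list and direction by adjusted p. Some list genes are not reported here. A gene given in a further comparison was chosen after its values were seen. Genes alike in profile are the 6 nearest to the members' mean, of which the first 2 are given, and the 3 nearest to TAP1 and to NLRC5 by Pearson's r.

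Alternatives were equal sums, no trend, no filter, a mean of at least 50, pseudocounts of 0.1 and 10, a fit of the compared groups alone, a block for the replicate number, leaving out each library, and leaving out the library of each group highest in a marker list. Promoters are from the RefSeq table of GRCh38.p14, searched on both strands with motifs chosen after the data were seen.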

Additional observations from a re-analysis of the deposited data

How the results depend on the processing

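Of 810 alternative values of single genes, 739 kept their direction and side of the threshold, 18 lost a call, 8 gained one and 45 turned sign. The bright to dim calls of TAP1 and HLA-E at both oxygen levels and of NLRC5 in normoxia held without any single library. The number of the 9 genes passing was 3, 3, 0, 0 and 0 in the 5 comparisons, and leaving out each library gave 3 to 3, 2 to 4, 0 to 0, 0 to 0 and 0 to 1. Without the libraries highest in airway genes, 1 gene passed between bright and dim cells in normoxia and 0 did in hypoxia, without those highest in granule genes 1 passed in hypoxia, and without those highest in muscle genes 2 passed at each oxygen level. These fits keep 2 libraries per group, and calls fell over all 15057 genes too. In normoxia 570 of all genes were lower in bright cells with all libraries, 115 without the airway libraries and 266 without the muscle libraries. In hypoxia these numbers were 2053, 319 and 593, with 1145 without the granule libraries. Libraries with the same replicate number deviated together in some pairs and not in others (r of -0.229 to 0.448 over 18 pairs, 7 above 0.1). The best match of a library in another group had its own number in 13 of 36 cases. With 3 libraries per group this cannot settle whether the numbers pair samples. With the replicate number as a block the counts were 3, 3, 0, 0 and 1, the last being NLRC5 for the difference (0.45, adjusted p = 0.0365). Under the block HLA-B passed in hypoxia (adjusted p = 0.0444) and B2M did not (adjusted p = 0.0613), and with a mean of at least 50 HLA-B passed (adjusted p = 0.046).

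Sign turns were among values with no call. Without the libraries highest in airway genes they were NLRC5 in hypoxia for bright against dim (-0.02), HLA-E for hypoxia in dim cells (0.01), and HLA-C (-0.11) and TAP2 (-0.02) for the difference. Without those highest in muscle genes they were B2M (0.04, normoxia) and NLRC5 (-0.02, hypoxia) for bright against dim, HLA-E in dim (0.01) and B2M in bright cells (-0.05) for hypoxia, and HLA-C (-0.08) for the difference. Without those highest in granule genes they were, for bright against dim, HLA-F in normoxia (-0.39) and HLA-C (0.07) and HLA-F (0.30) in hypoxia, for hypoxia in dim cells HLA-B (-0.21), HLA-C (-0.25), HLA-F (-0.48) and TAPBP (-0.10), in bright cells HLA-F (0.21), and for the difference HLA-B (0.20) and HLA-F (0.69). With equal sums HLA-C (-0.01) and TAPBP (-0.00) turned for hypoxia in dim cells. The causes were not tested.

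Leaving out each library gave turns within these ranges: for bright against dim HLA-F -0.40 to 0.37 in normoxia, and HLA-C -0.22 to 0.08, HLA-F -1.31 to 0.32 and NLRC5 -0.04 to 0.06 in hypoxia. For hypoxia in dim cells they were HLA-B -0.16 to 0.18, HLA-C -0.19 to 0.10, HLA-E -0.19 to 0.02, HLA-F -0.49 to 1.14 and TAPBP -0.05 to 0.08. In bright cells they were HLA-F -0.54 to 0.23, B2M -0.05 to 0.15 and TAP1 0.00 to 0.07. For the difference they were HLA-B -0.22 to 0.12, HLA-C -0.07 to 0.23, HLA-F -1.43 to 0.20, TAP2 -0.01 to 0.12 and TAPBP -0.05 to 0.09. A fit of only the groups compared could not be had for the difference.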

Other observations

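Molecules that resemble class I or bind it were also read. Of 17 class I-like genes 11 were tested. In hypoxia 4 were lower in bright than in dim cells, 1 was higher and 6 did not pass, with a median log2 fold change of -0.72 against -0.031 over all genes, of which 26.5% passed and 13.6% were lower. PROCR, the endothelial protein C receptor, averaged 16 ± 3.46 in hypoxic bright and 82.7 ± 19.3 in hypoxic dim libraries (SD, n = 3 each; -2.29 ± 0.47, limma adjusted p = 0.0038). ULBP2, a ligand of the activating NK receptor NKG2D, averaged 58.7 ± 10.6 in hypoxic bright and 96.7 ± 11 in hypoxic dim libraries (-0.72 ± 0.20, limma adjusted p = 0.0199). HFE, the iron regulator, averaged 11 ± 2.65 and 43.3 ± 32.7 in the same groups (-1.67 ± 0.49, limma adjusted p = 0.0239). MR1, which presents vitamin metabolites, was higher (0.36 ± 0.12, limma adjusted p = 0.0401). Apart from PROCR, each of these calls was lost without some single libraries, at adjusted p of up to 0.0764 for ULBP2, 0.108 for HFE and 0.165 for MR1. In normoxia 1 of 11 passed (9.09%), against 6.66% of all genes, and nothing particular to the list is read from this count. The gene was RAET1E, a further NKG2D ligand. RAET1E averaged 29.7 ± 13.1 in normoxic bright and 67.7 ± 7.37 in normoxic dim libraries (-1.27 ± 0.33, limma adjusted p = 0.0326, and up to 0.116 without a single library).

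Of 18 receptors that read class I, 17 were in the table and 4 were tested. In normoxia 2 of the 4 were lower in bright cells, against 3.79% of all genes. In hypoxia 1 of the 4 was lower, against 13.6% of all genes. KLRC1, a chain of the receptor for HLA-E, had 3, 6 and 7 in normoxic bright libraries, against 95, 70 and 64 in normoxic dim libraries (-3.65 ± 0.44, limma adjusted p = 0.000163). In hypoxia it had 4, 3 and 7 in bright libraries, against 45, 43 and 91 in dim libraries (-3.39 ± 0.44, limma adjusted p = 0.000221). KLRD1, the partner chain that KLRC1 needs in this receptor, lay between 0 and 5 in all libraries and was not tested, so the complete receptor is not shown in either subset. The coreceptor chain CD8A averaged 32 ± 7 in normoxic bright and 85.3 ± 18.8 in normoxic dim libraries (-1.39 ± 0.33, limma adjusted p = 0.0213, and up to 0.102 without a single library). The summed value of the T and NK cell genes given in the report was likewise lower in bright libraries, and the part of those genes in these values was not tested.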
